A study of Mus musculus with 3 samples.

Results

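A set of 9 genes of blood clotting and clot breakdown was followed through the leukocytes of the mouse aorta. The 9 genes, of 32285 counted, were F3, F7, F10, F13a1, Thbs1, Thbd, Plau, Plaur and Serpinb2. They were chosen by their symbols as genes of this system known from leukocytes, with earlier results of these data known. All 9 reached at least 10 CPM (UMIs of the gene per 1000000 UMIs) in 1 population or more. For each of them 12279 other genes did so too, so this is no result about the set. In CITE-seq, a cell's transcripts and the DNA-tagged antibodies on its surface are both read as unique molecular identifiers (UMIs), so that copies of a molecule count once. Jak2V617F Myel mice carry a Jak2V617F Flex allele that Cre recombinase under the LysM promoter switches on, mainly in myeloid cells, and they were compared with Jak2WT mice, for which the labels give no other allele. Aortic cells of 5 Jak2WT mice (numbered 1 to 5 by their hashtag antibody) and 5 Jak2V617F Myel mice were pooled, of which mice 7 and 9 had an aneurysm and mice 6, 8 and 10 had dilation without aneurysm. All mice received anti-CD45.2 into a vein before sacrifice so that circulating leukocytes could be kept out of the sort, which was set to about equal numbers of cells of each genotype. The mice were untreated, and the age at which they were killed was not given in the sources used here.

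The mice went through 1 sort and 1 run, so no library separates the groups. Before pooling, however, the authors stained cells of the genotypes with anti-CD45.2 carrying different dyes. Genotype and this staining cannot be told apart. After hashtag assignment and a limit on mitochondrial transcripts, 4871 of 8471 barcodes were kept, 1780 from Jak2WT and 3091 from Jak2V617F Myel mice. Kept UMIs per mouse ran from 1038443 in mouse 4 to 9643994 in mouse 9. Cell populations were rebuilt here from marker genes, so each name is to be read as "like" that cell type. Resident macrophages (1121 cells) were the Res-MGL1hi, Res-Txnip hi and IEG+ clusters together, where IEG+ marks immediate-early genes. IEG+ made up 555 of these cells, and the authors list IEG+ apart from their resident subsets. Their resident subset Res-S100hi did not form a cluster of its own at the main settings used here. At a macrophage resolution of 1.2, separate clusters of 202 Res-MGL1hi and 162 Res-S100hi cells formed. Aqp1, Tppp3, Gprc5b and Slc9a3r2 were among the leading genes of that Res-S100hi cluster and of the main Res-MGL1hi cluster of 356 cells. Res-MGL1hi as used here may thus mix both subsets, in shares that were not counted. Ccr2+ inflammatory macrophages (500 cells) came mostly from the mice with aneurysm, with 244 cells in mouse 7 and 196 in mouse 9. A cluster of 207 cells led by Prg4, Saa3, Serpinb2 and Alox15, genes known from macrophages of the body cavities, is called cavity-type myeloid cells. It held 76 cells of mouse 5, 99 of mouse 10, 13 of mouse 8 and at most 5 of any other mouse, and the labels do not say whether tissue around the aorta was carried along. Although the sort took CD45+ cells, 47 cells were led by Col1a1, Col1a2 and Dcn, genes of fibroblasts and smooth muscle, and 34 by the platelet genes Ppbp and Gp9.

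Clotting starts when tissue factor, the product of F3, meets the plasma protease factor VII (F7) and the pair activates factor X (F10), which turns prothrombin into thrombin. Thrombin makes fibrin, and the transglutaminase factor XIII, whose catalytic A chain is encoded by F13a1, cross-links the fibrin strands. Thrombomodulin (Thbd) binds thrombin and turns it toward the anticoagulant protein C pathway, while thrombospondin 1 (Thbs1) is a matrix glycoprotein released by platelets and made by many activated cells. Clots are cleared by plasmin, which urokinase (Plau) forms on the cell surface when held by its receptor (Plaur), and Serpinb2 (plasminogen activator inhibitor 2) inhibits urokinase. Macrophages are known makers of F13a1, Plau, Plaur and, on stimulation, of F3 and Serpinb2.

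The genes lie on 7 chromosomes of GRCm38 (mm10). F7 (chr8:13026034-13035809) and F10 (chr8:13037308-13056676) are neighbors on the plus strand, 1498 bases apart. F13a1 lies at chr13:36867178-37050244 (minus strand), F3 at chr3:121723537-121735048, Thbs1 at chr2:118111876-118127133, Thbd at chr2:148404466-148408188 (minus strand), Plau at chr14:20836660-20843385, Plaur at chr7:24462484-24475968 and Serpinb2 at chr1:107511423-107535478, the others being on the plus strand. Since levels of several of these genes moved together across populations, the 250 bases before the annotated start were read from the RefSeq table (GRCm38.p6), which held 6 of the 9 genes. The windows below are those of the cross-linking enzyme of resident macrophages, of 3 genes highest among leukocytes in cavity-type cells and of the receptor that differed between genotypes. Capitals mark the AP-1 motif TGANTCA, searched on both strands:
F13a1, chr13:37050245-37050494, minus strand: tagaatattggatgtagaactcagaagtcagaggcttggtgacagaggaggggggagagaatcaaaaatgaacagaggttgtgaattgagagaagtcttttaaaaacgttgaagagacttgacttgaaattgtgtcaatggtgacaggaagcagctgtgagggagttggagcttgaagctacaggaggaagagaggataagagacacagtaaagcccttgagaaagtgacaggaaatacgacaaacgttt
F10, chr8:13037058-13037307, plus strand: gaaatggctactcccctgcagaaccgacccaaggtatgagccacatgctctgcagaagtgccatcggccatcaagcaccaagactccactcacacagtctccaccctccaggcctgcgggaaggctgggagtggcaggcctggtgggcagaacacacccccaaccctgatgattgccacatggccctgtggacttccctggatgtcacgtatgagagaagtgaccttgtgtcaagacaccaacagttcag
F3, chr3:121723287-121723536, plus strand: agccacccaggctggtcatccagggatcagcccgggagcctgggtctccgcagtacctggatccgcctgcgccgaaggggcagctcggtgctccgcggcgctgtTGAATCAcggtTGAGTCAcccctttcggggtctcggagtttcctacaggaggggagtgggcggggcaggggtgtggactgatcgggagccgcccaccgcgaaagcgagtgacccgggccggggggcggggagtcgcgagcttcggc
Serpinb2, chr1:107511173-107511422, plus strand: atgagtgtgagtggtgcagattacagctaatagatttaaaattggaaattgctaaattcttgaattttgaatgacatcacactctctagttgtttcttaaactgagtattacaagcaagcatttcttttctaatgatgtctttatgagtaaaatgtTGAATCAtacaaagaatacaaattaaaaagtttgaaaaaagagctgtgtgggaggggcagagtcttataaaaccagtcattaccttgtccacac
Plaur, chr7:24462233-24462482, plus strand: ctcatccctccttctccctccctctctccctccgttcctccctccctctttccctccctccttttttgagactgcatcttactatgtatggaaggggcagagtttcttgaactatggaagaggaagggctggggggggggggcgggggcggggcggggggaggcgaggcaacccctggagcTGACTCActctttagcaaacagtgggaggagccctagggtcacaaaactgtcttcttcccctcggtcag
The F3 window held the AP-1 motif at 2 places, the Plaur and Serpinb2 windows at 1 place each, and the F7, F10 and F13a1 windows did not hold these letters. Of 32851 promoter windows of this length, 6.75% held the motif. The windows shown held neither the GATA motif AGATAA, present in 9.99% of all windows, nor the PU.1 motif GAGGAAGT, present in 2.44%. The window of a second annotated Serpinb2 start, not shown, held the AP-1 and GATA motifs at 1 place each. None of these matches overlapped another, and they are descriptions of sequence, not of binding.

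Levels are given in CPM, relative to all UMIs of the population, per mouse with at least 10 such cells, or over all its cells where no mouse had 10. Because the 3′ counts are not per length, levels were compared between populations and not between genes. Cells were grouped by their transcripts, so the differences between populations are descriptions with no test, although the 9 genes were left out of the genes used for clustering. F13a1 was the gene of resident macrophages, F3 of non-leukocytes and cavity-type cells, F7, F10, Serpinb2 and Thbs1 of cavity-type cells, and Plaur of neutrophils.

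**Figure D1:**
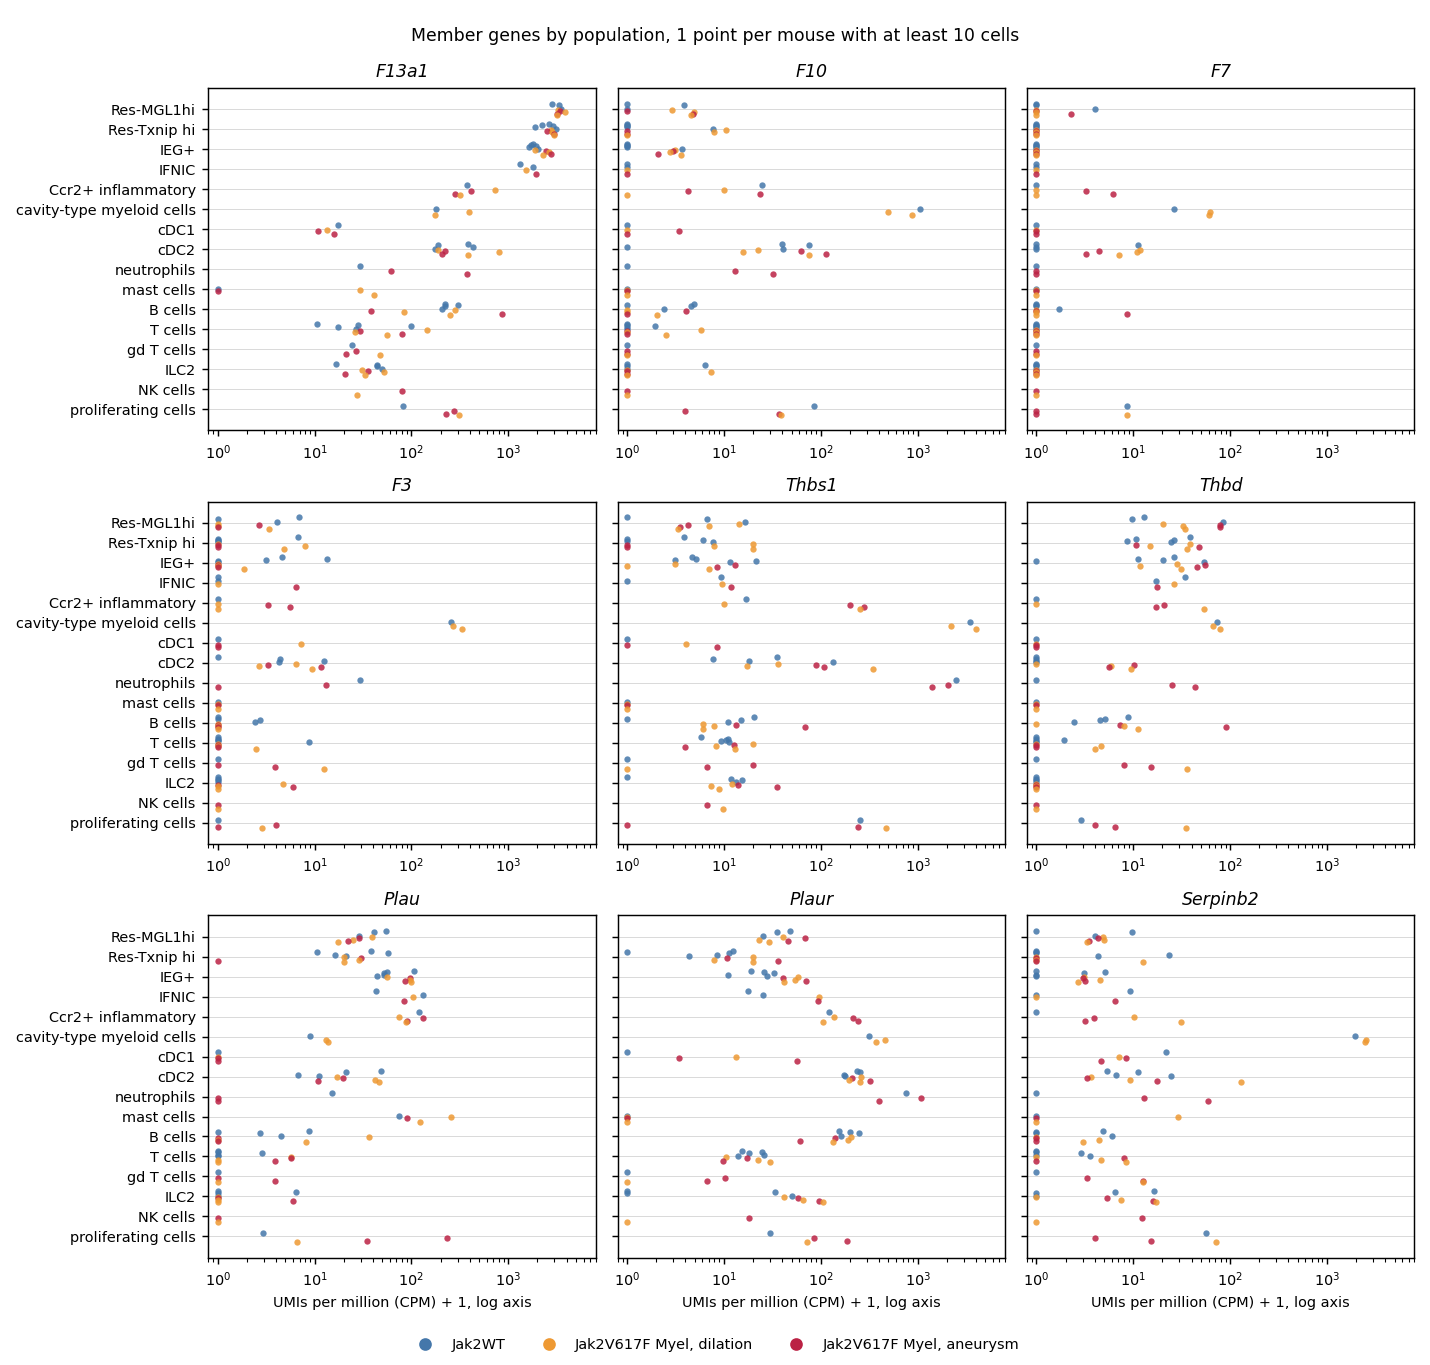
Level of each of the 9 genes, 1 panel per gene, in 16 populations (rows), as CPM + 1 on a log axis, with 1 point per mouse with at least 10 cells, colored by Jak2WT, dilation and aneurysm. F13a1 is high in all mice across the resident macrophage clusters, with means from 2114 in IEG+ to 3331 in Res-MGL1hi, and the 3 cavity-type points lie to the right of the other rows for F10, F7, F3 and Serpinb2.

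F13a1 averaged 2638 ± 356 CPM (SD, n = 10 mice) in resident macrophages. Among their clusters it stood at 3331 ± 288 (n = 8) in Res-MGL1hi, 2682 ± 376 (n = 10) in Res-Txnip hi and 2114 ± 390 (n = 10) in IEG+. Neighboring ranges over mice overlapped, while those of Res-MGL1hi and IEG+ did not. Within a mouse the order was the same throughout: Res-MGL1hi was above Res-Txnip hi in 8 of 8 mice and Res-Txnip hi above IEG+ in 10 of 10. IFNIC macrophages, marked by interferon-induced genes, came next with 1639 ± 277 (n = 4). Ccr2+ inflammatory macrophages had 374.5 CPM in mouse 2, 730.5 in mouse 6, 413 in mouse 7, 282.5 in mouse 9 and 318 in mouse 10. Every one of these 5 values was below every resident value, the lowest of which was 1985. The inflammatory class was not even: its cluster of 191 cells, led by Ccr2 itself, had 700.2 CPM and its cluster of 309 cells, led by Mmp12 and Spp1, had 195.

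The 27 monocytes, which are counted in the sums over all macrophages below, had 880 CPM of F13a1. Outside those sums it was lower, with 331 ± 205 (n = 9) in type 2 dendritic cells (cDC2), 249 ± 124 (n = 3) in cavity-type cells and 50.8 ± 43.1 (n = 10) in T cells. cDC2, inflammatory macrophages and cavity-type cells overlapped over mice. In cells thinned to 2000 UMIs, 94.2% of resident macrophages held an F13a1 UMI (exact 95% binomial interval 92.7 to 95.5%), against 34.0% of inflammatory macrophages and 29.0% of cDC2. T cells, which are not known to make the enzyme, had 11.2% and the main B cell cluster of 561 cells had 7.68%. These shares were taken as the background, and whether it came from free RNA or from doublets was not tested. T cells were uneven, with 170.5 CPM in their cluster of 203 cells and 36.5 in that of 408. Unthinned, the share was 99.02% in resident macrophages and 25.7% in T cells, at median depths of 9798 and 6294 UMIs. A second B cell cluster of 37 cells carried 1311 CPM of F13a1 against 42.5 in the first, with a median of 16758 UMIs per cell against 5390. Doublets of cells from the same mouse are not seen by hashtags, and their part in that cluster was not tested. Because of its level, 72.6% of all F13a1 UMIs came from resident macrophages, which were 23.0% of the cells, and in single mice this share ran from 60.6% to 86.4%.

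The extrinsic pathway genes F3, F7 and F10 stood together in cavity-type cells. F10 was 1054 CPM in mouse 5, 491 in mouse 8 and 882 in mouse 10 there. Monocytes followed at 243 CPM over all mice, cDC2 at 48.8 ± 35.5 (n = 9), inflammatory macrophages at 11.8 ± 11.1 (n = 5) and resident macrophages at 2.30 ± 1.68 (n = 10). All 3 cavity-type values were above every value of the other populations with a mean over mice. F7, whose plasma protein comes from the liver, was sparse but had the same place, with 25.5, 61.4 and 60.1 CPM in mice 5, 8 and 10 and under 7 CPM over all cells in every other population. F3 had 253, 270.1 and 329 CPM in cavity-type cells of these mice and 555 over the non-leukocytes. Platelets were next at 39.5, from so few UMIs that the 95% counting interval ran from 4.79 to 143, followed by neutrophils at 11.9.

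Cavity-type cells also led for Thbs1 and Serpinb2. Thbs1 was 3458 CPM in mouse 5, 2194 in mouse 8 and 3978 in mouse 10. Platelets had 2292, monocytes 2039.7 and neutrophils 2471 in mouse 3, 2039.8 in mouse 7 and 1399 in mouse 9, so that cavity-type cells and neutrophils overlapped over mice. Resident macrophages, at 5.64 ± 2.75 (n = 10), were near the bottom. Serpinb2 was 1934 CPM in mouse 5, 2533 in mouse 8 and 2482 in mouse 10, against 68.6 in monocytes and 3.44 in resident macrophages. After thinning, 96.6% of cavity-type cells held a Thbs1 UMI, 83.5% a Serpinb2 UMI, 77.2% an F10 UMI, 51.0% a Plaur UMI and 21.4% an F3 UMI. In the pool of all mice, cavity-type cells, 4.25% of all cells, gave 94.95% of the Serpinb2 UMIs, 81.2% of F10, 75.0% of F3, 73.4% of Thbs1 and 67.2% of F7. These pooled shares rest on mice 5 and 10: in single mice they ran from 0 to 96.9% for Serpinb2 (median 80.7%), from 0 to 94.97% for F10 (median 50.0%), from 0 to 91.7% for Thbs1 (median 40.8%) and from 0 to 97.4% for F3 (median 10.6%). In mice 7 and 9 together, cavity-type cells gave 61.2% of Serpinb2, 10.7% of F3, 8.52% of F10, 4.92% of Thbs1 and 2.78% of F7, and inflammatory macrophages gave 46.5% of Thbs1.

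**Figure D2:**
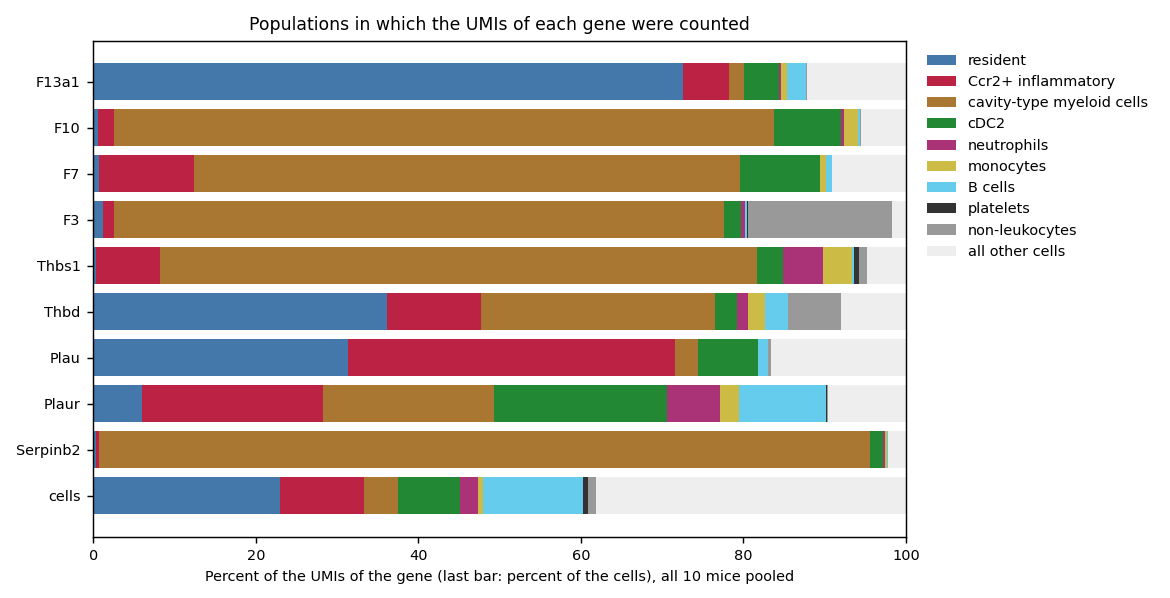
Share of each gene's UMIs (percent of all UMIs of that gene in kept cells, 10 mice pooled) from each cell population, 1 stacked bar per gene, with the share of cells as the last bar. In this pool, whose cavity-type cells come mostly from mice 5 and 10, those cells give most UMIs of Serpinb2 (94.95%), F10, F3, Thbs1 and F7, resident macrophages most of F13a1 (72.6%), while Plaur and Plau are spread over several populations.

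Mice 5 and 10, with 175 of the 207 cavity-type cells, also had the highest levels of Serpinb2 and F10 over all CD45+ cells. Serpinb2 over all cells was 19.9, 52.2, 11.7, 4.82 and 573 CPM in mice 1 to 5 and 58.7, 13.9, 186, 14.2 and 611.5 in mice 6 to 10. Mouse 5 is Jak2WT and mouse 10 is Jak2V617F Myel with dilation, and they were the highest of their genotypes. F10 over all cells showed the same pair, with 331 CPM in mouse 5, 221 in mouse 10 and at most 44.2 in the other 8 mice. For that reason genotypes were compared within populations, and cavity-type cells, with 10 cells in 3 mice only, had no test.

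The genes of clot breakdown and its control had other homes. Plaur was highest in neutrophils, at 763 CPM in mouse 3, 1074 in mouse 7 and 398 in mouse 9. Monocytes had 460 CPM over all their cells and cavity-type cells 383 ± 75.4 (n = 3). The cavity-type values ran from 312 to 462 and overlapped those of the neutrophils only in part. Lower came cDC2 at 232 ± 48.3 (n = 9), B cells at 165 ± 53.5 (n = 9) and inflammatory macrophages at 163 ± 60.8 (n = 5), which overlapped, and resident macrophages were at 32.17 ± 14.98 (n = 10). Resident macrophages were below inflammatory macrophages in 5 of 5 mice and below cDC2 in 9 of 9. In the pool, 22.2% of the Plaur UMIs were in inflammatory macrophages, 21.4% in cDC2, 21.0% in cavity-type cells, 10.7% in B cells and 6.05% in resident macrophages. The mice differed in this: inflammatory macrophages gave 46.8% and cavity-type cells 0.716% in mice 7 and 9, against 1.45% and 55.3% in mice 5 and 10, and the medians over mice were 26.2% for cDC2, 4.71% for cavity-type cells and 4.44% for inflammatory macrophages.

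Plau was a gene of mast cells and macrophages. Mast cells, 65 cells in all, had 74.2, 254, 88.5 and 120.6 CPM in mice 5, 6, 7 and 10. Inflammatory macrophages had 119.5 in mouse 2, 73.1 in mouse 6, 129 in mouse 7, 89.6 in mouse 9 and 87.1 in mouse 10. IFNIC had 89.0 ± 37.0 (n = 4), IEG+ 73.3 ± 24.2 (n = 10) and resident macrophages together 48.7 ± 11.5 (n = 10), so mast cells, inflammatory macrophages and IFNIC did not differ beyond their spread. In the 5 mice with both, inflammatory macrophages were above resident ones in each. Cavity-type cells, which led for the inhibitor Serpinb2 and were high in Plaur, had 11.1 CPM of Plau. Thbd was 155 CPM in non-leukocytes, 71.7 ± 5.82 (n = 3) in cavity-type cells, 68.6 in monocytes, 42.7 ± 31.4 (n = 8) in Res-MGL1hi and 34.4 ± 17.7 (n = 10) in resident macrophages, with 36.1% of its UMIs from resident macrophages.

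Over 19 populations, the levels of F10 correlated with those of Thbs1 by 0.873, of Serpinb2 by 0.861 and of F7 by 0.826 (Pearson, log2 of CPM + 1), while F13a1 and Serpinb2 gave -0.053. These populations share mice and a library and differ in depth, so the values are a description. Among 12279 genes, F13a1 was most like Clec4a1 (0.933) and Ubtd1 (0.918), F10 like Prtn3 (0.890) and F5 (0.876), and F7 like Fn1 (0.901). F3 was most like Jam2 (0.869), Thbs1 like Msrb1 (0.879), Thbd like Ap4b1 (0.899), Plau like Trim47 (0.900), Plaur like Hcar2 (0.866) and Serpinb2 like Gm16587 (0.931) and Saa3 (0.908).

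The first comparison asked whether the mutation changed these genes within resident macrophages, summed per mouse. Plaur rose, and the other 3 members that could be tested, F13a1, Thbd and Plau, did not pass the threshold. Plaur was 21.5, 25.6, 25.9, 9.00 and 19.0 CPM in Jak2WT mice 1 to 5 and 45.5, 51.1, 34.8, 56.0 and 33.4 in Jak2V617F Myel mice 6 to 10. Every mutant value was above every wild-type value, with means of 44.2 ± 9.92 and 20.2 ± 6.89 (SD, n = 5 each). How many of all genes separated like this was not counted. The log2 fold change was 1.03 ± 0.21 (SE), 2.04-fold, with an adjusted p of 0.0366 by edgeR's quasi-likelihood test with Benjamini-Hochberg adjustment over 7669 genes. Of those genes, 0.509% were called in either direction, 0.287% higher and 0.222% lower, against 1 of the 4 members that passed the filter on low counts. The filter left out F3, F7, F10, Thbs1 and Serpinb2, all scarce in these cells.

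The mix of resident clusters differed between genotypes, and its part in the Plaur difference was not tested. Res-Txnip hi, with 12.4 CPM of Plaur over all its cells, held 127 of 423 Jak2WT and 83 of 698 mutant resident cells. IEG+ was a pair of clusters: that of 207 cells, at 15.1 CPM, held 117 Jak2WT and 90 mutant cells, and that of 348 cells, at 55.5 CPM, held 87 and 261.

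The call for Plaur was close to the threshold and was lost when mouse 1, 3, 5, 6, 7 or 9 was left out, with adjusted p from 0.0635 to 0.122 and log2 fold changes between 0.92 and 1.11. It was also lost without the IEG+ clusters (0.99, adjusted p 0.194) and, in a setting chosen after seeing the data, without cells holding a cavity-type marker UMI (1.02, adjusted p 0.0749). In a fit of 3 groups, Plaur was 0.81 higher in dilation than in Jak2WT (adjusted p 0.276) and 1.32 higher in aneurysm (adjusted p 0.0164). Both contrasts use the same Jak2WT mice. In the IEG+ clusters alone, whose mix also leans in mutant mice to the cluster higher in Plaur, the difference was 0.99 ± 0.25 (adjusted p 0.0824) and in Res-MGL1hi 0.30 ± 0.38 (adjusted p 0.906, 3 Jak2WT and 5 mutant mice), and whether IEG+ and Res-MGL1hi differ in this was not tested.

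F13a1 was 2384, 2386, 2388, 1985 and 2840.3 CPM in Jak2WT and 2616, 2958, 3152, 2972 and 2699 in mutant resident macrophages, so mouse 5 lay inside the mutant range. The difference of 0.26 ± 0.09 missed the threshold (adjusted p 0.234). Thbd was 27.8, 9.60, 23.1, 33.0 and 54.0 CPM in Jak2WT and 24.6, 61.9, 19.9, 58.6 and 31.7 in mutant mice, and Plau 64.5, 44.8, 51.7, 30.0 and 31.0 against 43.6, 56.1, 57.2, 50.2 and 58.0. Both overlapped between genotypes (0.43 ± 0.36, adjusted p 0.723, and 0.23 ± 0.18, adjusted p 0.672). The median log2 fold change of the 4 members tested was 0.34, beside -0.02 over all genes. Markers of other cells were low in these sums: platelet markers came to 1.07 to 12.3 CPM in Jak2WT and 2.64 to 9.07 in mutant mice, with 6 of 8 markers seen and Gp1ba and Tubb1 at 0. Stromal markers came to 24.0 to 60.7 and 26.4 to 54.5 CPM, with Cdh5 at 0, and cavity-type markers to 11.7 to 47.0 and 15.3 to 25.5.

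**Figure D3:**
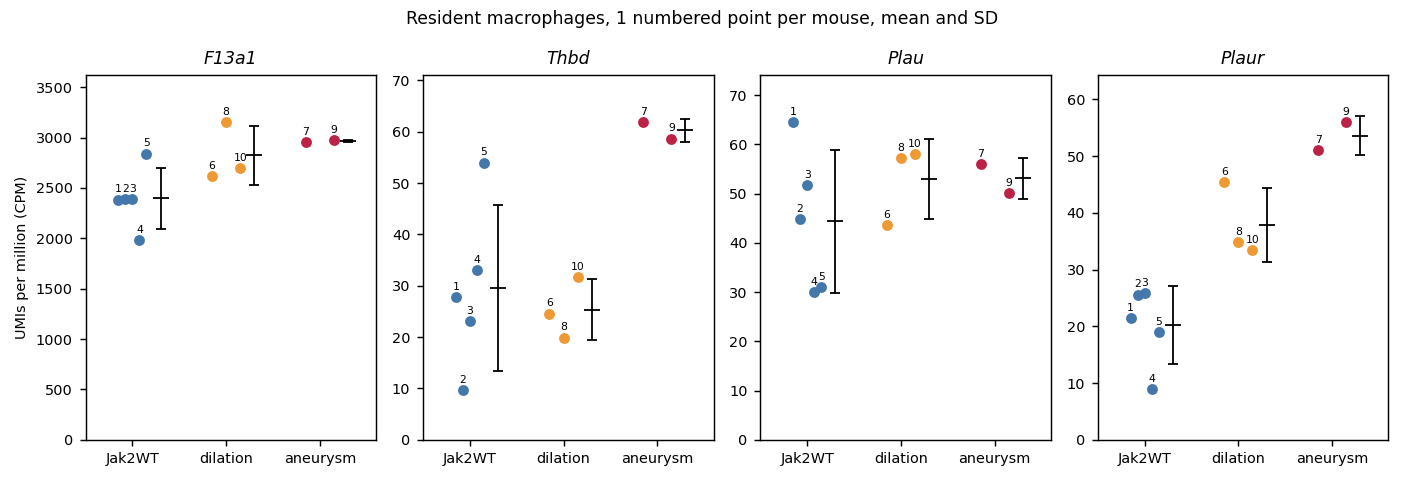
Level in resident macrophages (CPM, y axis from 0) of F13a1, Thbd, Plau and Plaur, 1 numbered point per mouse with the mean and SD of Jak2WT, dilation and aneurysm mice. The 5 Plaur points of the mutant mice lie between 33.4 and 56.0, all above the Jak2WT points, which reach 25.9.

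Within the mutant mice, the 2 with aneurysm were set against the 3 with dilation in the same cells. Thbd was 61.9 and 58.6 CPM in mice 7 and 9 and 24.6, 19.9 and 31.7 in mice 6, 8 and 10. Its log2 fold change was 1.16 ± 0.20 with an unadjusted p of 7.68e-05 from edgeR, but over 8237 genes the adjusted p was 0.127. Without the filter on low counts the adjusted p was 8.29e-06 at the same fold change. In that setting edgeR called many more genes in all. Plaur was 51.1 and 56.0 against 45.5, 34.8 and 33.4 CPM (0.51 ± 0.18, adjusted p 0.831). No member was called, 2 of the 4 tested had an unadjusted p under 0.05, and 2 genes in all were called by edgeR (0.0243%, and 0.0121% in each direction), with 491 at an unadjusted p under 0.05 and 5 called by DESeq2.

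All macrophages kept, 1741 cells, were then summed per mouse. Besides resident, inflammatory and IFNIC macrophages, this sum held the 27 monocytes and 17 unnamed cells led by Trbc2 and Tcf7. None of the 6 members tested was called between genotypes by edgeR, and F3, F7 and Serpinb2 were too low to test. Over 8163 genes 0 were called (0%), with 979 at an unadjusted p under 0.05, and DESeq2 called 54, Plaur among them. Plaur was 39.2, 44.5, 29.5, 18.5 and 41.4 CPM in Jak2WT and 67.1, 170.2, 62.5, 174 and 48.0 in mutant mice (1.62 ± 0.39, adjusted p 0.191 by edgeR and 0.0086 by DESeq2). The genotypes did not overlap, and the mice with aneurysm stood apart from the 3 with dilation. Thbs1 was 4.90, 5.45, 29.5, 4.11 and 70.4 CPM in Jak2WT and 51.1, 181, 81.7, 202.5 and 54.2 in mutant mice, with mouse 5 inside the range of dilation (2.28 ± 0.64, adjusted p 0.232, and 3.44 without mouse 5, adjusted p 0.143).

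The 2 mice with aneurysm were then compared with the 8 others over all macrophages. Both are mutant, while the others are 5 Jak2WT mice and 3 mutant mice with dilation. Severity and genotype are thus partly mixed in this comparison. Plaur, Thbs1 and Plau rose and F13a1 fell, so 3 of the 7 members tested were called higher and 1 lower. In this comparison 14.1% of the 9016 genes tested were called, 8.03% higher and 6.04% lower. For Plaur (log2 fold change 1.97 ± 0.21, adjusted p 2.93e-05 by edgeR), 170.2 and 174 CPM in mice 7 and 9 stood above a highest value of 67.1 in the others. For Thbs1 (2.28 ± 0.48, adjusted p 0.0054), 181 and 202.5 stood above 81.7. Plau was 104 and 74.3 CPM against 30.6 to 60.8 (0.83 ± 0.18, adjusted p 0.0054). F13a1 was 1119 and 1289 CPM with aneurysm, against 1815 to 2868 without it (-0.86 ± 0.14, adjusted p 0.000936). These 4 genes, the ones called, had no overlap between the mice with aneurysm and the others, and neither had Serpinb2, which was not called. The calls rest on these same values, and how many of all genes separated in this way was not counted.

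Serpinb2 was 2.87 and 2.37 CPM in aneurysm against 2.92 to 14.9 (-1.24 ± 0.47, adjusted p 0.0911), and F10 (0.43 ± 0.56) and Thbd (0.20 ± 0.30) were not called. The call for Thbs1 was lost without mouse 9 (2.21, adjusted p 0.0672) and under DESeq2 (2.43, adjusted p 0.119), and that for Plau without mouse 7 (0.56, adjusted p 0.211). The share of Ccr2+ inflammatory cells moved with this comparison, and these sums also change with the mix of cells. With the inflammatory clusters left out, which was done after seeing the data, no member was called: F13a1 was 0.11 ± 0.13 (adjusted p 0.904), Plau -0.01 ± 0.20 (adjusted p 1.00), Plaur 0.92 (adjusted p 0.355) and Thbs1 1.57 (adjusted p 0.542). Without those clusters, 1 gene in all was called higher or lower by edgeR. The cells left still held the monocytes, at 2039.7 CPM of Thbs1 over all their cells, beside 5.75 in resident macrophages. In mice 7 and 9, all macrophages kept gave 59.35% of the Thbs1 UMIs, inflammatory macrophages 46.5% and the 12 monocytes 11.7%. The part of monocytes in the remaining Thbs1 and Plaur differences was not tested. Cavity-type markers came to 12.4 to 16.8 CPM with aneurysm, against 9.99 to 63.2 without it. Stromal markers came to 22.6 to 30.3 CPM with aneurysm and 28.4 to 60.8 without it. Of the 8, 4 were tested, 0 were called and 3 (Col1a2, Col3a1 and Dcn) had an unadjusted p under 0.05, with a median log2 fold change of -0.76 over the 4. Their part in these values was not tested.

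**Figure D4:**
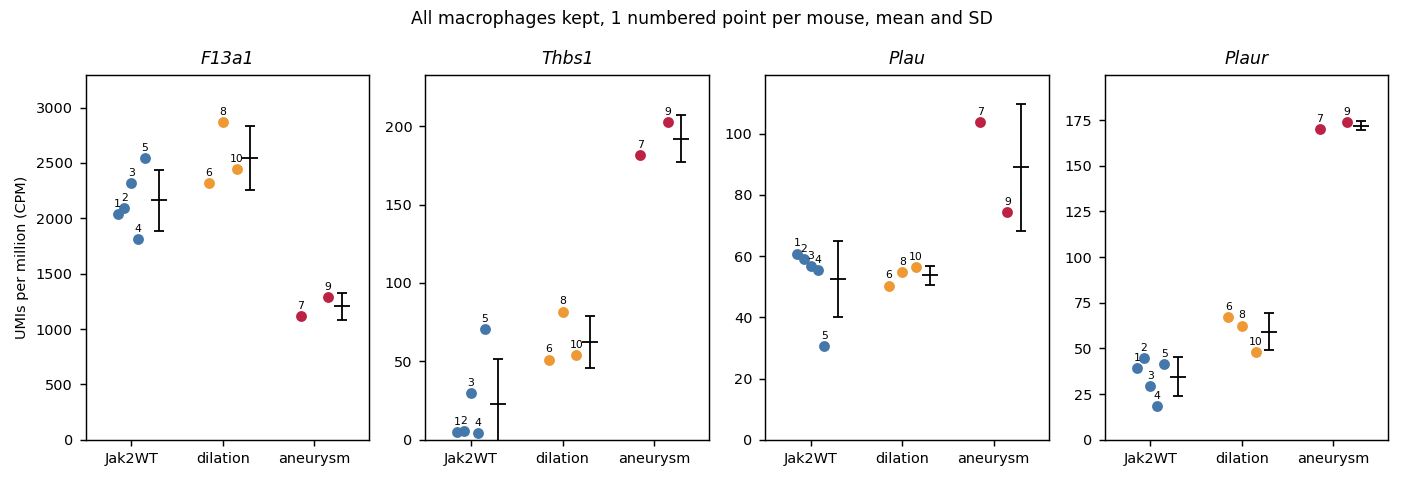
Level over all macrophages kept, monocytes included, of F13a1, Thbs1, Plau and Plaur (CPM, y axis from 0). Each numbered point is 1 mouse, with the mean and SD of Jak2WT, dilation and aneurysm mice. Mice 7 and 9 are highest for Plaur (170.2 and 174), Thbs1 and Plau and lowest for F13a1 (1119 and 1289).

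**Figure D5:**
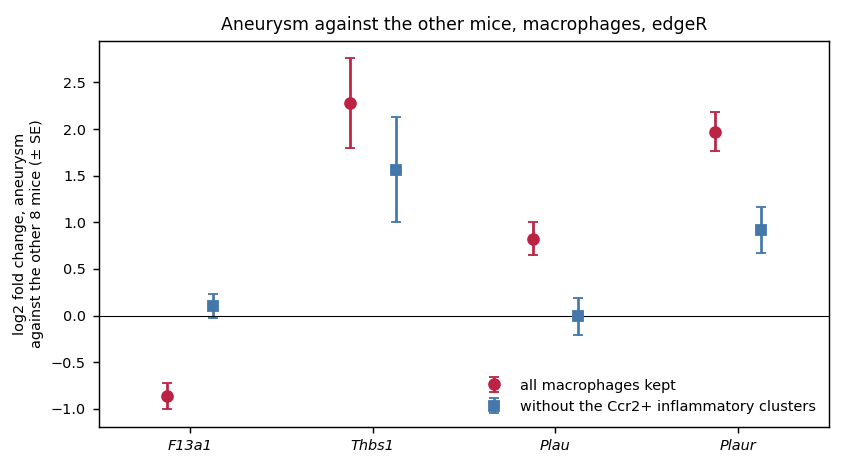
Log2 fold change (y axis) of 4 genes over all macrophages, aneurysm against the other 8 mice, by edgeR with its SE as bars, with all macrophages (circles) and without the Ccr2+ inflammatory clusters (squares). F13a1 moves from -0.86 to 0.11 and Plau from 0.83 to -0.01. Plaur and Thbs1 keep part of their difference, in cells that still include the monocytes, but are no longer called.

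Inside the Ccr2+ inflammatory macrophages, mice 7 and 9 could be set against mice 2, 6 and 10, of which mouse 2 is Jak2WT. Plaur was 214 and 242 CPM with aneurysm and 119.5, 137 and 104.5 without. Its difference of 0.91 ± 0.24 had an unadjusted p of 0.00367 and an adjusted p of 0.311 by edgeR over 3401 genes. No gene was called there (0%), 331 had an unadjusted p under 0.05, and DESeq2 called 22, none of them a member. Thbs1 was 198 and 280.3 CPM with aneurysm and 15.9, 9.13 and 252 without, where mouse 10 lay among the mice with aneurysm (1.02 ± 0.71, adjusted p 0.644). Without mouse 10 it was 4.34 with an adjusted p of 0.0067.

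In cDC2, 4 members passed the filter and 0 were called, with 0 at an unadjusted p under 0.05. edgeR called 0 of 4140 genes (0%), 318 had an unadjusted p under 0.05, and DESeq2 called 14, no member among them. Thbs1 was 34.5, 6.79, 7.50, 17.1 and 134 CPM in Jak2WT and 35.1, 88.1, 16.5, 106 and 345 in mutant mice, the lists overlapping (1.17 ± 0.85, adjusted p 0.814); the fit used the 9 mice with at least 10 cDC2. Cavity-type markers reached 308.7 CPM in mutant and 23.4 in Jak2WT cDC2, and their part in these values was not tested. In B cells (2 members tested), Res-Txnip hi (1), IEG+ and Res-MGL1hi, no member was called, and in ILC2 and T cells 0 members passed the filter, so none was tested. In IEG+, 4 members were tested and 2 had an unadjusted p under 0.05, as did 581 of the 5201 genes tested there. By adjusted p, edgeR called 0.154% of all genes, 0.0769% in each direction. DESeq2 called 42 genes, no member among them, and gave no adjusted p for Thbd and Plaur. In Res-MGL1hi, also with 4 members tested, edgeR called 0.0652% of all genes, 0.0489% higher and 0.0163% lower. The other 4 populations gave 0 calls over all genes by edgeR, with 116 to 381 at an unadjusted p under 0.05 and 0 to 3 by DESeq2, and in 3 tests of members there 0 had an unadjusted p under 0.05.

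The panel held antibodies to CD36 and CD47, receptors of thrombospondin 1. On resident macrophages CD47 gave 1.67, 1.45, 1.51, 1.56 and 1.24 counts per cell in Jak2WT and 2.14, 1.99, 1.93, 1.99 and 2.12 in mutant mice, without overlap. The means were 1.48 ± 0.16 and 2.03 ± 0.09 (SD, n = 5 each), a log2 difference of 0.46 with p = 0.00794 in a two-sided exact permutation test, the smallest this design allows (adjusted over both antibodies 0.0159). As a share of all antibody counts of the cells, the difference was 0.16 with an exact permutation p of 0.333, so the call rests on the scale. Of the isotype controls, which bind no known target, hamster, rat IgG1 and rat IgG2b all ran higher in mutant mice. The hamster control was 0.177 to 0.407 counts per cell in Jak2WT and 0.442 to 0.867 in mutant mice, and rat IgG1 0.198 to 0.316 and 0.312 to 0.730. Rat IgG2b was 0 to 0.126 and 0.0884 to 0.191. Rat IgG1 and rat IgG2b overlapped between genotypes, and the hamster control did not. Rat IgG2a gave 0 counts in every mouse and so shows no background for antibodies of its class. Their part in the CD47 difference was not tested, and genotype cannot be told apart here from the staining before pooling. CD36 was 0.565 ± 0.161 in Jak2WT and 0.659 ± 0.055 in mutant mice (log2 difference 0.26, exact permutation p 0.175). The transcripts of both receptors were not called by edgeR in the same cells. Cd47 had a log2 fold change of 0.026 ± 0.115 (adjusted p 0.973) and Cd36 of 0.136 ± 0.146 (adjusted p 0.7965).

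Among 52 other genes of coagulation, anticoagulation, fibrinolysis, thrombin receptors, thrombospondins and transglutaminases, 27 reached 10 CPM in a population, 9 of them highest in platelets and 8 in non-leukocytes. In platelets, 34 cells with 50606 UMIs in all, 1 UMI is 19.8 CPM and passes this level, so these counts can rest on very few UMIs. F5, whose product is the cofactor of factor X, had 672 CPM in cavity-type cells beside 751 in platelets. The fibrinogen chains Fga, Fgb and Fgg, plasminogen (Plg) and protein C (Proc) had 0 UMIs. In the genotype comparison of resident macrophages 14 of these genes were tested and 0 called by edgeR, beside 0.509% of all genes. In the aneurysm comparison over all macrophages 15 were tested, 3 rose and 1 fell, beside 8.03% and 6.04% of all genes. Tgm2, a tissue transglutaminase of the same enzyme family as F13a1, rose by 3.603 ± 0.29 on the log2 scale (adjusted p 3.05e-06). It passed the filter on low counts here, where the smaller group was 2 mice, but not in the genotype comparison of the same macrophages. Its entry into the test thus depended on this grouping. Itgav, an integrin chain that binds thrombospondin and other matrix proteins, rose by 0.85 (adjusted p 0.00792). Lrp1, a scavenger receptor that takes up urokinase complexes, rose by 0.53 (adjusted p 0.0466). Pros1, the cofactor protein S, fell by 0.88 (adjusted p 0.0106). Their median of 0.34 stood beside -0.035 over all genes, and these sums too hold the inflammatory cells of mice 7 and 9.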

How the data were processed

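The authors sequenced transcript, antibody and hashtag libraries of 1 pool and made counts with Cell Ranger on mm10; the deposited counts are whole UMI counts per cell barcode, unnormalized. The submitters' processing notes name Seurat 3.0.0. Here, R 4.3.3 with Seurat 5.3.0 was used. Barcodes were assigned to mice by HTODemux (quantile 0.99), 2265 multiplets and 349 negatives were left out, and 986 cells above 10% mitochondrial transcripts were removed. No other doublet caller was run. Clusters (2000 variable genes without the pathway genes, 20 components, resolution 0.3, macrophages 0.8) were named from markers, and 396 low-RNA macrophages were removed. UMIs were summed per mouse and population with at least 10 cells and tested with edgeR 4.0.16 (filterByExpr, TMM, quasi-likelihood F test, two-sided, Benjamini-Hochberg over all genes, threshold 0.05), and DESeq2 1.42.0 was an alternative. Each mouse is a separate animal and the replicate. The depth per mouse, 1038443 to 9643994 UMIs, limits low genes, and intervals cover counting error only. Shares of cells were taken after thinning to 2000 UMIs. The members and gene lists, and the markers, were chosen with earlier results of these data known. Genes named outside the members were list genes called in a comparison, the highest list genes, and those with the most similar levels. Promoter sequences and motifs were read with Python 3.11.15. Alternatives were other demultiplexing, filters, clusterings, thinning, and leaving out each mouse, some cells or some clusters. The authors' cell labels were not used here. The values of 1 gene of the pathway lists are not reported here.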

Additional observations from a re-analysis of the deposited data

Results flagged for a closer look

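Of 42 groups of 4 or 5 mice checked, 6 held a mouse far from the rest, and chance alone would give about 1 in 20. Mice 5 and 10 account for 4 of the 6. They also hold most of the cavity-type cells, whose part in these values was not tested. That cluster is left out of the sums over all macrophages, which include monocytes. F10 over all macrophages was 27.3 CPM in mouse 5 against 3.64 to 9.44 in the other Jak2WT mice. Plau over all macrophages was 30.6 CPM in mouse 5 against 55.5 to 60.8, the only low value among the 6. In cDC2 of mutant mice, Thbs1 was 345 CPM in mouse 10 against 16.5 to 106, and Serpinb2 was 130.1 CPM in the same mouse against 2.32 to 16.7. In B cells of mutant mice, mouse 9 stood apart with 67.9 CPM of Thbs1 against 5.10 to 12.4 and 90.5 CPM of Thbd against 0 to 10.3. Mouse 9 gave 16 B cells.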

How the results depend on the processing

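In resident macrophages, the count of members called higher was 0 in place of 1 after thinning, without the IEG+ clusters, for dilation alone and without cells holding a cavity-type marker UMI, and 0 to 1 when each mouse was left out. DESeq2 gave no adjusted p for Plaur and Thbd there, and after thinning Plaur did not pass the filter. Over all macrophages by genotype, the count was 1 in place of 0 (Plaur) under DESeq2, without the filter and without the Ccr2+ inflammatory clusters (0.98, adjusted p 0.0499). In the aneurysm comparison, leaving out those clusters gave 0 higher and 0 lower, with F13a1 at 0.106 and Plau at -0.008; leaving out each mouse gave 2 to 3 higher and 1 lower. Without the filter, 1 member (Thbd) was called for severity and 1 (Plaur in IEG+, 1.05, adjusted p 0.00755) in the other populations. In inflammatory macrophages, 1 member (Thbs1) was called at resolution 1.2 (5.82, adjusted p 0.0395) and 0 to 1 without each mouse. As a share of antibody counts CD36 was -0.041 and CD47 0.16; CD36 ran from 0.155 to 0.407 without each mouse, the last without mouse 4 (exact permutation p 0.0159). Without the filter 89 genes were called for severity, against 2. After thinning Plau in the aneurysm comparison was 0.68 (adjusted p 0.13). The other 229 values of comparisons and levels under these alternatives kept their direction, side or size. Leaving out inflammatory clusters, cells with cavity-type markers, or mice 5 and 10 in cDC2 (0 members called) was chosen after seeing the data. The causes of these changes were not tested. The level of Plau in mast cells could not be recomputed after thinning. Depth limits F3, F7, F10 and Serpinb2, which were too low to test in resident macrophages. No paired analysis was possible because no mouse is shared between groups and the hashtag numbers differ between them.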
